A study of Saccharomyces cerevisiae with 8 samples.

Results

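Translation of most mRNAs starts at the 5′ cap, and the 10 genes described here encode the proteins that meet there in budding yeast, Saccharomyces cerevisiae. They are the cap-binding factor eIF4E (CDC33), the scaffold eIF4G (TIF4631 and TIF4632), the RNA helicase eIF4A (TIF1 and TIF2), its partner eIF4B (TIF3), the poly(A)-binding protein Pab1 (PAB1), the eIF4E-binding proteins (CAF20 and EAP1) and the helicase Ded1 (DED1). They were chosen by symbol as the parts and close partners of the cap-binding complex, with earlier results of these data known. All 10 were found among the 6034 coding targets. Poly-A RNA of strain W303a was sequenced in 8 libraries, with 2 in each of 4 groups. All cultures started at 30 °C in YPD (2% dextrose), at an OD600 between 0.2 and 0.4, and spent 5 min at 30 °C or 39 °C. Each temperature was measured in cells labelled without 5ph-IAA (untreated here), called the control (30 °C) and heat shock (39 °C) groups, and in cells labelled with 5ph-IAA, called the treated and the treated heat shock groups. For the latter the protocol names 1 µM β-estradiol and 5 µM 5ph-IAA over 30 min, meant to remove Ifh1, which activates transcription of ribosomal protein genes. The design text names anchor away, another way to remove a protein from the nucleus, in place of this degron scheme. Whether the untreated cells received a solvent or β-estradiol, or carried the same tagged strain, is not stated, so effects of the agents and of Ifh1 loss cannot be told apart.

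As background, eIF4E holds the cap and eIF4G, and eIF4G holds eIF4A and Pab1, so that the cap and the poly(A) tail of an mRNA are joined in 1 assembly that recruits the small ribosomal subunit. Caf20 and Eap1 bind eIF4E at the surface that eIF4G uses and repress translation of subsets of mRNAs. Ded1 unwinds structure in 5′ leaders together with eIF4F and gathers into condensates on heat shock, as Pab1 also does. These are properties of the proteins, whereas the measurements are mRNA levels after poly-A selection.

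The libraries held 7717767 to 21025464 estimated counts, the most in the heat shock group, and the 10 genes had 1325 to 19891.3 estimated counts each, so all 10 passed the filter on low counts. Replicates correlated with r = 0.990 to 0.996 on the log2(TPM + 1) scale across targets. The a-cell markers of the strain label summed to 551 to 559 TPM in the control, 101 to 104 in the heat shock, 681 to 700 in the treated and 220 to 230 in the treated heat shock group, although the very short MFA1 and MFA2 were listed at 0. The 3 alpha-cell markers summed to 13.2 to 30.7 TPM across the libraries. Ribosomal protein genes took 39.7% and 40.6% of all TPM in the control libraries, 19.3% and 19.8% in the heat shock libraries, 17.1% and 17.3% in the treated ones and 10.3% in both treated heat shock ones. TPM (transcript abundance corrected for length, as a share of 1 library) is fixed in its total, so a lower share of these genes is a higher share of the others. The median of all tested genes stood 0.61 higher on the log2(TPM + 1) scale with 5ph-IAA at 30 °C, against −0.02 with TMM, the scaling used for the tests. Levels are therefore given as TPM, fold changes as log2 ratios with TMM scaling ± standard error (SE), and the value on the log2(TPM + 1) scale beside those for 5ph-IAA. In bulk RNA, a lower level in every cell and a loss in some of the cells cannot be told apart.

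Heat shock without 5ph-IAA compared 39 °C with 30 °C in untreated cells. Within 5 min, 8 of the 10 mRNAs fell, TIF4631 the most (log2 fold change −2.84) and DED1 the least (−0.33), while EAP1 rose by 0.26 and TIF4632 did not pass the test (−0.10). DESeq2 called 9 lower, TIF4632 among them (−0.16, adjusted p = 0.0265). Over all 5734 tested genes, 39.7% were called lower and 42.5% higher in this comparison (edgeR quasi-likelihood test, Benjamini-Hochberg adjusted p under 0.05). The median of the 10 genes was −1.30 and that of all tested genes 0.04. The 10 genes together took 0.503% and 0.505% of TPM in the control and 0.225% and 0.230% in the heat shock libraries.

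Heat shock with 5ph-IAA was the same temperature step in treated cells. Here 7 of the 10 genes fell, against 38.3% of all tested genes, and 1 rose, EAP1, against 38.0%. TIF4632 (0.07) and DED1 (−0.02) did not pass. The median was −0.64 for the 10 genes and 0.01 for all tested genes. Over all genes TMM gave 2178 higher and 2194 lower calls, library totals 1409 and 3156, and the log2(TPM + 1) scale 1577 and 2835. The EAP1 rise rested on the scaling: it was 0.35 with TMM, 0.02 when only library totals were used (adjusted p = 0.770) and 0.12 on the log2(TPM + 1) scale (adjusted p = 0.102). Under these same scalings DED1 was called lower (−0.35, adjusted p = 3.47e-05, and −0.25, adjusted p = 0.00594).

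5ph-IAA against none at 30 °C compared treated with untreated cells before heat. With TMM scaling 8 of the 10 genes were called lower, against 28.1% of all tested genes, and 1, EAP1, higher, against 23.6%, with a median of −0.29 beside −0.02 for all tested genes. These directions hold relative to the bulk of mRNAs only: on the log2(TPM + 1) scale 1 of the 10, DED1, was called lower and 7 higher, and scaling by library totals gave 4 lower and 5 higher calls. Over all tested genes TMM gave 1351 higher and 1614 lower calls, library totals 3962 and 503, and the log2(TPM + 1) scale 4865 and 276. Taking off the median of all tested genes cancels the scaling by construction, and relative to it DED1 was the lowest of the 10 (−0.88), followed by TIF4631 (−0.70), while TIF4632 (0.12) and EAP1 (0.18) lay above it. The fall in the ribosomal protein share moves with this comparison, and its part in the values was not tested. Scaling without the ribosomal protein genes gave the same calls for the 10 genes. Its median of all tested genes (0.00) was close to that with TMM (−0.02), so these calls cannot show what part that share had.

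5ph-IAA against none at 39 °C set the 2 heated groups side by side. All genes but DED1 were called higher with 5ph-IAA at 39 °C, 9 of 10 against 22.5% of all tested genes, and DED1 was called lower, 1 of 10 against 22.0%. The median of the 10 was 0.29 and that of all tested genes 0.00, and none of these directions turned under any scaling tried. All tested genes split into 1292 higher and 1260 lower calls with TMM, 2315 and 709 by library totals and 3224 and 371 on the log2(TPM + 1) scale. The interaction, the change with heat in treated cells less the change in untreated cells, was called above 0 for 8 genes, against 26.0% of all tested genes, and under 0 for none, against 22.9%. That count of 0 was also 0 at an unadjusted p under 0.05 and with DESeq2, but 1 (EAP1, −0.26, adjusted p = 0.0254) on the log2(TPM + 1) scale. The median interaction was 0.54 for the 10 genes and 0.00 for all, with 1490 genes above 0 and 1315 under 0 by TMM, 908 and 2550 by library totals, and 685 and 2948 on the log2(TPM + 1) scale. The comparisons share groups of libraries with each other, so their values are set side by side and not as independent results.

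**Figure D1:**
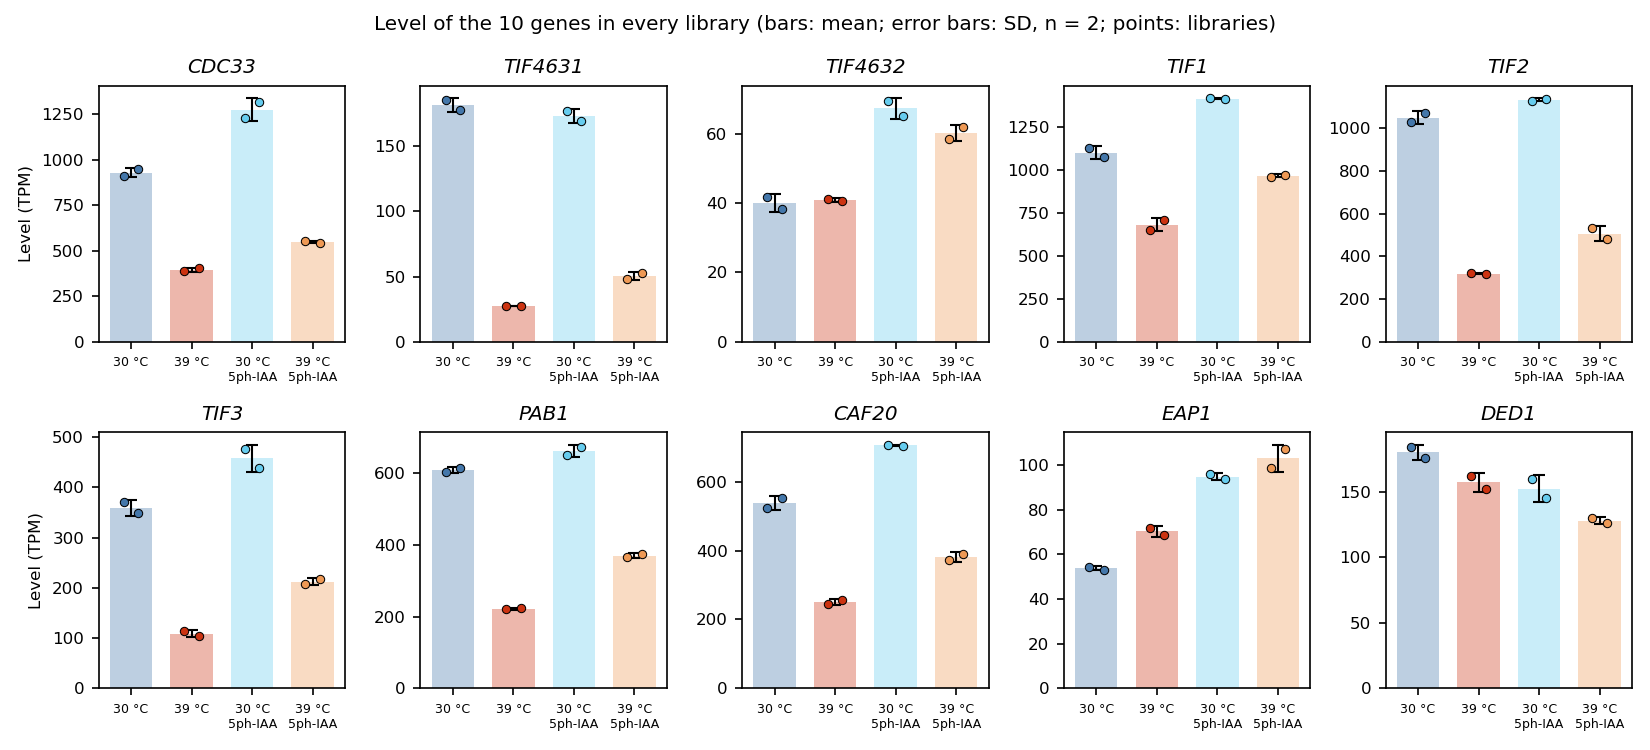
Level in TPM (y axis, from 0, a separate scale per gene) of the 10 genes in the 4 groups (x axis), with bars for the mean, error bars for the SD of 2 libraries and points for the libraries. TIF4631 fell from 181.3 to 27.71 TPM on heat shock without 5ph-IAA, TIF4632 stood at 39.96 and 40.84, and EAP1 was highest at 39 °C with 5ph-IAA.

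**Figure D2:**
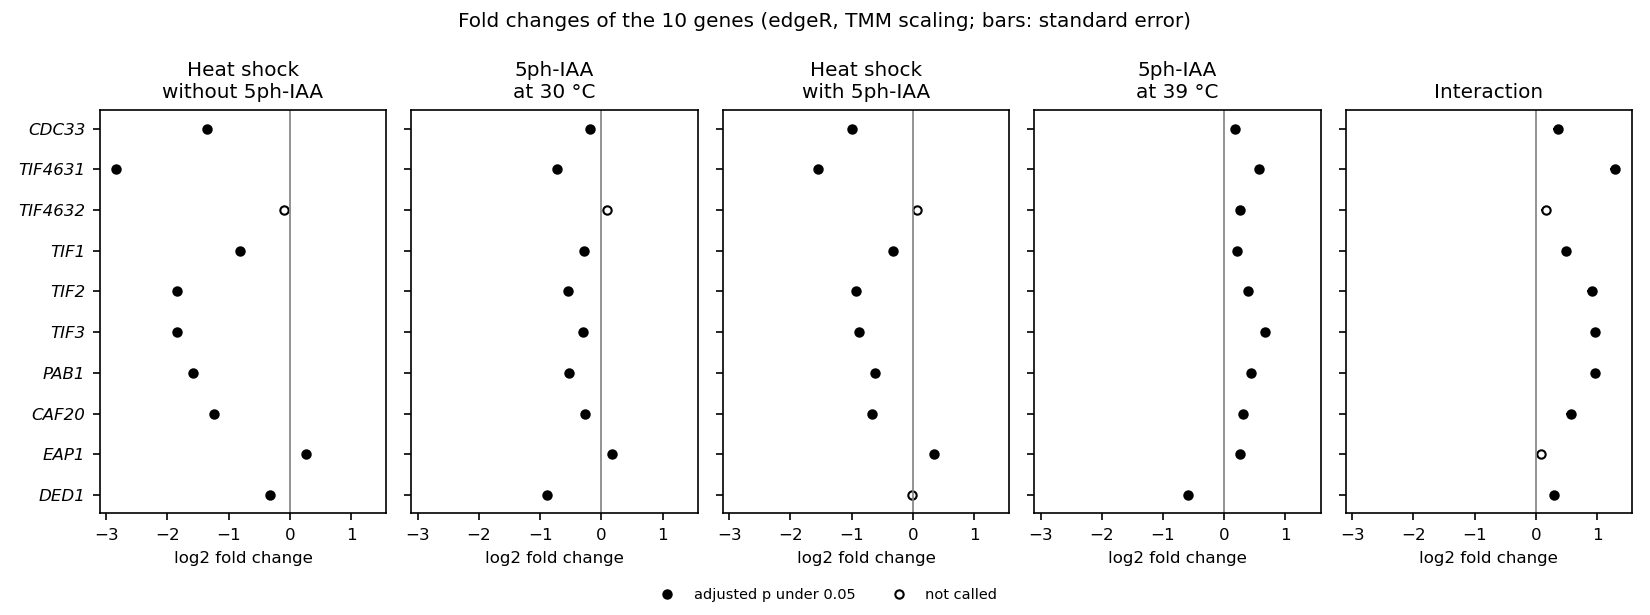
Log2 fold change (x axis) of the 10 genes (y axis) in the 4 comparisons and the interaction, from edgeR with TMM scaling, with filled points for an adjusted p under 0.05 and bars for the SE, most of them hidden by the points (SE of 0.05 to 0.08). Filled points left of 0 are 8 genes in heat shock without 5ph-IAA and 7 with it, and all 10 interactions lie right of 0, with 8 of them filled.

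CDC33 (YOL139C, chromosome XV, 60383 to 61024, minus strand, R64) encodes eIF4E, the protein that binds the cap, in a single coding exon. It stood at 912.1 and 948.6 TPM in the control libraries, 388.3 and 403.3 in the heat shock libraries, 1231.4 and 1321.0 in the treated ones and 551.6 and 544.4 in the treated heat shock ones. The heated libraries were the lowest and the 4 groups did not overlap. The heat shock change of CDC33 was −1.36 ± 0.06 in untreated cells (adjusted p = 5.54e-11) and −0.99 ± 0.06 in treated cells (adjusted p = 3.35e-09), an interaction of 0.37 ± 0.08 (adjusted p = 0.00256). Scaled by library totals that interaction was 0.12 (adjusted p = 0.181), and on the log2(TPM + 1) scale 0.01 (adjusted p = 0.859). With 5ph-IAA at 30 °C its fold change was −0.19 ± 0.06 with TMM scaling (adjusted p = 0.0140) and 0.45 on the log2(TPM + 1) scale, and at 39 °C it was 0.18 ± 0.06 (adjusted p = 0.0297) and 0.47. The call at 30 °C was lost without replicate 2 of the 30 °C control (−0.13, adjusted p = 0.139) or replicate 1 of the 30 °C group with 5ph-IAA (−0.12, adjusted p = 0.167). The call at 39 °C was lost without replicate 1 of the 39 °C group (0.13, adjusted p = 0.206) or either replicate with 5ph-IAA (0.15, adjusted p = 0.141, and 0.20, adjusted p = 0.0560).

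The scaffold eIF4G comes from a gene pair. TIF4631 (YGR162W, chromosome VII, 824059 to 826917, plus strand) encodes eIF4G1, the main form in growing cells, and TIF4632 (YGL049C, chromosome VII, 406860 to 409604, minus strand) encodes eIF4G2. TIF4631 stood at 185.2 and 177.5 TPM in the control libraries, 27.79 and 27.64 in the heat shock libraries, 176.8 and 169.1 in the treated ones and 48.18 and 52.84 in the treated heat shock ones. Every heated library lay under every unheated one, and the level at 39 °C was higher in both libraries with 5ph-IAA. Its heat shock change was −2.84 ± 0.05 in untreated cells (adjusted p = 3.22e-15) and −1.55 ± 0.05 in treated cells (adjusted p = 3.08e-12), and the interaction of 1.29 ± 0.07 (adjusted p = 6e-09) was the largest of the 10 genes, also by library totals (1.04) and on the log2(TPM + 1) scale (0.91). With 5ph-IAA at 30 °C it was lower by TMM (−0.72 ± 0.05, adjusted p = 2.21e-08) and −0.07 on the log2(TPM + 1) scale (adjusted p = 0.313). At 39 °C it was higher with 5ph-IAA by 0.57 ± 0.05 (adjusted p = 7.38e-07; 0.84 on the log2(TPM + 1) scale).

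TIF4632 stood at 41.75 and 38.17 TPM in the control libraries, 41.19 and 40.49 in the heat shock libraries, 69.32 and 65.12 in the treated ones and 58.46 and 61.75 in the treated heat shock ones. The control and heat shock libraries overlapped, and all 4 libraries with 5ph-IAA lay above all 4 without it. Its heat shock change was −0.10 ± 0.05 in untreated cells (adjusted p = 0.0835) and 0.07 ± 0.05 in treated cells (adjusted p = 0.244), and neither passed. The change in untreated cells was called lower by library totals (−0.17, adjusted p = 0.00959), without ribosomal protein genes (−0.15, adjusted p = 0.011) and with DESeq2 (−0.16, adjusted p = 0.0265). It was also called lower from the 4 libraries of the comparison alone (−0.12, adjusted p = 0.0481), but was 0.03 on the log2(TPM + 1) scale. The change in treated cells was called lower by library totals (−0.26, adjusted p = 0.000600). With 5ph-IAA the fold change was 0.10 ± 0.05 at 30 °C (adjusted p = 0.112; 0.74 on the log2(TPM + 1) scale) and 0.26 ± 0.05 at 39 °C (adjusted p = 0.000598; 0.55 on that scale).

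Because both forms were measured in the same library, the make-up of the eIF4G mRNA pool does not depend on scaling between libraries. TIF4632 made up 18.4% and 17.7% of eIF4G TPM in the control libraries, 59.7% and 59.4% in the heat shock libraries, 28.2% and 27.8% in the treated ones and 54.8% and 53.9% in the treated heat shock ones. The minor form at 30 °C was thus the more abundant form in all 4 heated libraries, while the pool itself went from 221.3 ± 8.04 to 68.6 ± 0.601 TPM on heat shock without 5ph-IAA and from 240.2 ± 8.46 to 110.6 ± 5.62 with it (SD, n = 2). The TPM ratio of TIF4631 to TIF4632 fell by 2.74 on the log2 scale with heat in untreated cells and fell by 1.62 in treated cells. With 2 libraries on each side, the two-sided exact permutation test gave its smallest possible value for both, p = 0.333.

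The helicase eIF4A is encoded by a duplicated gene, TIF1 (YKR059W, chromosome XI, 554987 to 556174, plus strand) and TIF2 (YJL138C, chromosome X, 153504 to 154691, minus strand). Their coding sequences in the S288C reference (R64, RefSeq) are 1188 bases long, differ at 6 positions (99.49% identical) and encode the same 395-residue protein. Counted from 1 at the A of the start codon, the substitutions from TIF1 to TIF2 are T60C, C225T, T228C, C873T, C1170T and T1176C. The stretches that hold them are printed here, with the differing bases in capitals and 5′ to 3′ on the coding strand, because they are the bases on which separate values for TIF1 and TIF2 depend.
TIF1, XI:555036-555056: atgacaaggtTgtctacaagt
TIF2, X:154622-154642: atgacaaggtCgtctacaagt
TIF1, XI:555201-555224: agaccggtacCttTtccattgctg
TIF2, X:154454-154477: agaccggtacTttCtccattgctg
TIF1, XI:555849-555869: ctgccatctaCtctgatttac
TIF2, X:153809-153829: ctgccatctaTtctgatttac
TIF1, XI:556146-556172: catccgacatCgctacTttgttgaact
TIF2, X:153506-153532: catccgacatTgctacCttgttgaact

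Of the coding stretches of 50 bases 15.1% hold such a position, and of those of 100 and 200 bases 25.9% and 45.2%. The genes shared 1043 of their 1158 words of 31 bases, whereas the other 8 genes of the set shared none with any coding sequence of the reference. Reads between these positions carry no sign of their gene, the authors' counting divided them by its model, and W303a may differ from the reference at these bases. In the control libraries the estimated counts were whole numbers for TIF1 (16006 and 15859) and TIF2 (14538 and 15792). In the other groups they were fractional, such as 19031.2 and 9338.81 in replicate 1 of the heat shock group. Whether the division of reads differed in the control was not tested. The separate values of TIF1 and TIF2 are therefore uncertain, and their sum is the firmer measure.

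TIF1 stood at 1129.7 and 1074.6 TPM in the control libraries, 654.3 and 708.4 in the heat shock libraries, 1419.3 and 1415.4 in the treated ones and 961.8 and 973.9 in the treated heat shock ones. TIF2 stood at 1026.0 and 1070.0, at 321.1 and 316.1, at 1127.5 and 1137.4, and at 530.1 and 483.0 TPM in the same order. In both genes the 39 °C libraries without 5ph-IAA were the lowest and the 30 °C libraries with it the highest, with no overlap between groups. As listed, TIF2 had the larger fall on heat shock (−1.85 ± 0.06, adjusted p = 1.36e-12), with a smaller one for TIF1 (−0.82 ± 0.05, adjusted p = 1.61e-09), so that the TIF1 share of the sum was 52.4% and 50.1% in the control and 67.1% and 69.1% in the heat shock libraries. In the treated libraries that share was 55.7% and 55.4%, and in the treated heat shock libraries 64.5% and 66.8%. With the counts of both genes summed before the test, eIF4A mRNA fell by 1.23 ± 0.05 on the log2 scale with heat in untreated cells (adjusted p = 9.88e-12) and by 0.56 ± 0.05 in treated cells (adjusted p = 7.63e-08). The interaction of the sum was 0.67 ± 0.06 (adjusted p = 1.69e-06). Taken singly on the log2(TPM + 1) scale, the interaction was 0.14 for TIF1 (adjusted p = 0.0777), a call lost, and 0.55 for TIF2 (adjusted p = 0.000316), against 0.50 and 0.92 with TMM. With 5ph-IAA the sum changed by −0.40 ± 0.05 at 30 °C with TMM scaling (adjusted p = 6.98e-06), where TIF1 was −0.29 and TIF2 −0.54 with TMM and 0.36 and 0.11 on the log2(TPM + 1) scale. At 39 °C it was higher with 5ph-IAA by 0.27 ± 0.05 (adjusted p = 0.000333), where TIF1 was 0.21 and TIF2 0.38 with TMM and 0.51 and 0.67 on the log2(TPM + 1) scale.

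TIF3 (YPR163C, chromosome XVI, 868645 to 869955, minus strand) encodes eIF4B, which stimulates eIF4A. It stood at 370.3 and 348.0 TPM in the control libraries, 113.9 and 104.1 in the heat shock libraries, 476.8 and 438.8 in the treated ones and 207.4 and 217.5 in the treated heat shock ones. The 4 groups did not overlap, and the 39 °C level with 5ph-IAA lay well above the level without it. TIF3 fell by 1.85 ± 0.05 on the log2 scale with heat in untreated cells (adjusted p = 2.6e-13) and by 0.88 ± 0.05 in treated cells (adjusted p = 1.36e-09), an interaction of 0.97 ± 0.07 (adjusted p = 9.25e-08) that was 0.61 on the log2(TPM + 1) scale. Its rise with 5ph-IAA at 39 °C, 0.67 ± 0.05 (adjusted p = 1.31e-07; 0.96 on the log2(TPM + 1) scale), had the highest value of the 10 genes in that comparison. At 30 °C the value was −0.30 ± 0.05 with TMM scaling (adjusted p = 0.000150) and 0.35 on the log2(TPM + 1) scale. The TPM ratio of TIF3 to eIF4A was 0.172 and 0.162 in the control and 0.117 and 0.102 in the heat shock libraries, and 0.187 and 0.172 in the treated and 0.139 and 0.149 in the treated heat shock libraries.

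PAB1 (YER165W, chromosome V, 510373 to 512106, plus strand) encodes the protein that coats the poly(A) tail and binds eIF4G. Its level was 603.0 and 613.9 TPM in the control libraries, 220.2 and 224.1 in the heat shock libraries, 650.1 and 674.7 in the treated ones and 365.3 and 374.4 in the treated heat shock ones. The libraries of each group lay close together and apart from those of the other groups. PAB1 fell by 1.58 ± 0.05 with heat in untreated cells (adjusted p = 1.21e-12) and by 0.62 ± 0.05 in treated cells (adjusted p = 5.56e-08), an interaction of 0.97 ± 0.07 (adjusted p = 8.54e-08) that was 0.61 on the log2(TPM + 1) scale. With 5ph-IAA it changed by −0.53 ± 0.05 at 30 °C with TMM scaling (adjusted p = 8.26e-07; 0.12 on the log2(TPM + 1) scale) and rose by 0.44 ± 0.05 at 39 °C (adjusted p = 6.29e-06; 0.73 on that scale). The TPM ratio of PAB1 to CDC33 was 0.661 and 0.647 in the control libraries, 0.567 and 0.556 in the heat shock libraries, 0.528 and 0.511 in the treated ones and 0.662 and 0.688 in the treated heat shock ones. It went down on heat shock without 5ph-IAA (−0.22 on the log2 scale) and up with it (0.38), each with p = 0.333 by the exact permutation test, its smallest value.

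The mRNAs of the eIF4E-binding proteins moved in opposite directions on heat shock in untreated cells. CAF20 (YOR276W, chromosome XV, 841333 to 841818, plus strand) encodes the small eIF4E-binding protein p20, and EAP1 (YKL204W, chromosome XI, 53704 to 55602, plus strand) a larger one that also takes part in mRNA decay. CAF20 stood at 525.1 and 552.9 TPM in the control libraries, 245.0 and 256.0 in the heat shock libraries, 707.3 and 704.9 in the treated ones and 372.0 and 391.6 in the treated heat shock ones. EAP1 stood at 54.40 and 53.18 TPM in the control libraries, 71.99 and 68.60 in the heat shock libraries, 95.97 and 93.75 in the treated ones and 98.82 and 107.4 in the treated heat shock ones. For both genes no groups overlapped, but the order differed: the heated libraries were the lowest for CAF20, and the 30 °C control was the lowest for EAP1.

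CAF20 fell by 1.24 ± 0.06 with heat in untreated cells (adjusted p = 1.51e-10) and by 0.66 ± 0.06 in treated cells (adjusted p = 2.59e-07), an interaction of 0.57 ± 0.08 (adjusted p = 8.08e-05) that was 0.32 by library totals and 0.22 on the log2(TPM + 1) scale (adjusted p = 0.0187). EAP1 rose by 0.26 ± 0.05 in untreated cells (adjusted p = 0.000356), between 0.18 and 0.39 over the scalings and both TPM scales, and its interaction of 0.09 ± 0.07 did not pass (adjusted p = 0.324). In treated cells the heat shock change of EAP1 was 0.35 ± 0.05 with TMM, but 0.02 by library totals and 0.12 on the log2(TPM + 1) scale, neither of them called. With 5ph-IAA at 30 °C, CAF20 changed by −0.26 ± 0.06 with TMM scaling (adjusted p = 0.00213; 0.39 on the log2(TPM + 1) scale). EAP1 rose there by 0.17 ± 0.05 (adjusted p = 0.0150; 0.81 on the log2(TPM + 1) scale), a call lost without replicate 1 of the 30 °C control (0.15, adjusted p = 0.0769). At 39 °C both were higher with 5ph-IAA, CAF20 by 0.31 ± 0.06 (adjusted p = 0.000875; 0.61 on that scale) and EAP1 by 0.26 ± 0.05 (adjusted p = 0.000709; 0.55). EAP1 made up 9.39% and 8.77% of the summed TPM of the pair in the control libraries, 22.7% and 21.1% in the heat shock libraries, 11.9% and 11.7% in the treated ones and 21% and 21.5% in the treated heat shock ones. CAF20 thus stayed the more abundant mRNA of the pair in all 8 libraries.

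**Figure D3:**
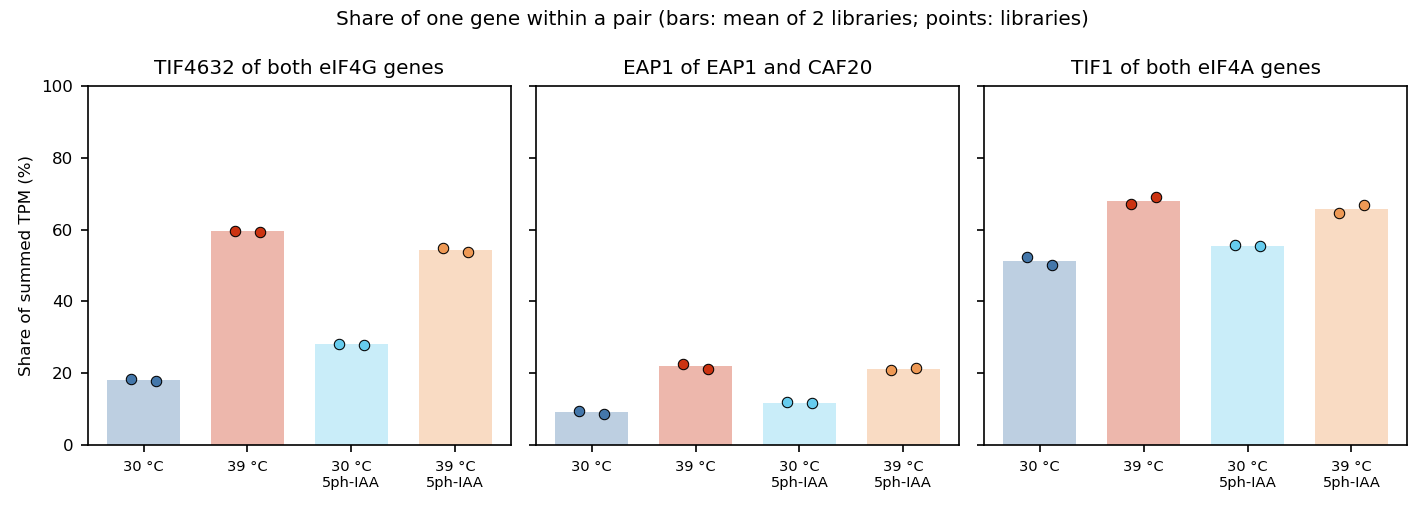
Share in percent (y axis, 0 to 100) of TIF4632 in the eIF4G TPM, of EAP1 in the TPM of EAP1 and CAF20, and of TIF1 in the eIF4A TPM, with bars for the mean of 2 libraries and points for the libraries of each group (x axis). TIF4632 went from 18.0% to 59.5% on heat shock without 5ph-IAA and EAP1 from 9.08% to 21.9%, and the TIF1 share, 51.2% to 68.1%, depends on reads that few positions can assign.

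DED1 (YOR204W, chromosome XV, 722911 to 724725, plus strand) encodes the helicase that opens 5′ leaders. Its order of groups by TPM was shared by none of the other 9 genes, as was also so for TIF4631, TIF4632 and EAP1. DED1 stood at 184.5 and 176.1 TPM in the control libraries, 162.5 and 152.4 in the heat shock libraries, 159.8 and 145.3 in the treated ones and 130.1 and 126.2 in the treated heat shock ones. The 39 °C libraries and the 30 °C libraries with 5ph-IAA overlapped, the 30 °C control was the highest and the 39 °C group with 5ph-IAA the lowest. Its heat shock change was −0.33 ± 0.05 without 5ph-IAA (adjusted p = 2.48e-05), between −0.19 and −0.40 across the scalings, and −0.02 ± 0.05 with it (adjusted p = 0.689). The interaction of 0.30 ± 0.07 (adjusted p = 0.00270) was 0.05 by library totals (adjusted p = 0.569) and −0.05 on the log2(TPM + 1) scale (adjusted p = 0.606). With 5ph-IAA it was lower at both temperatures under every scaling tried, with −0.89 ± 0.05 at 30 °C (adjusted p = 5.11e-09) and −0.59 ± 0.05 at 39 °C (adjusted p = 4.02e-07) by TMM and −0.24 and −0.29 on the log2(TPM + 1) scale. It was the 1 gene of the 10 called lower with 5ph-IAA at 39 °C.

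Set against eIF4A in the same library, DED1 had a TPM ratio of 0.0856 and 0.0821 in the control libraries, 0.167 and 0.149 in the heat shock libraries, 0.0627 and 0.0569 in the treated ones and 0.0872 and 0.0866 in the treated heat shock ones. The ratio was higher in the heated libraries, by 0.91 on the log2 scale without 5ph-IAA and 0.54 with it, and lower with 5ph-IAA, with log2 differences of −0.49 at 30 °C and −0.86 at 39 °C. Each of the 4 differences had p = 0.333 in the exact permutation test. The TPM ratio of both eIF4E-binding proteins together to CDC33 was 0.635 and 0.639 in the control and 0.816 and 0.805 in the heat shock libraries, and 0.652 and 0.605 against 0.853 and 0.916 in treated cells. The ratio of eIF4G to CDC33 was 0.249 and 0.227 in the control libraries, 0.178 and 0.169 in the heat shock libraries, 0.200 and 0.177 in the treated ones and 0.193 and 0.210 in the treated heat shock ones. Per length, the mRNAs for eIF4E-binding proteins thus stood higher and those for eIF4G lower relative to eIF4E mRNA at 39 °C in untreated cells (p = 0.333 for both, exact permutation test), while in treated cells the eIF4G ratios of the 2 temperatures overlapped (log2 difference 0.10, p = 0.667, exact permutation test).

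**Figure D4:**
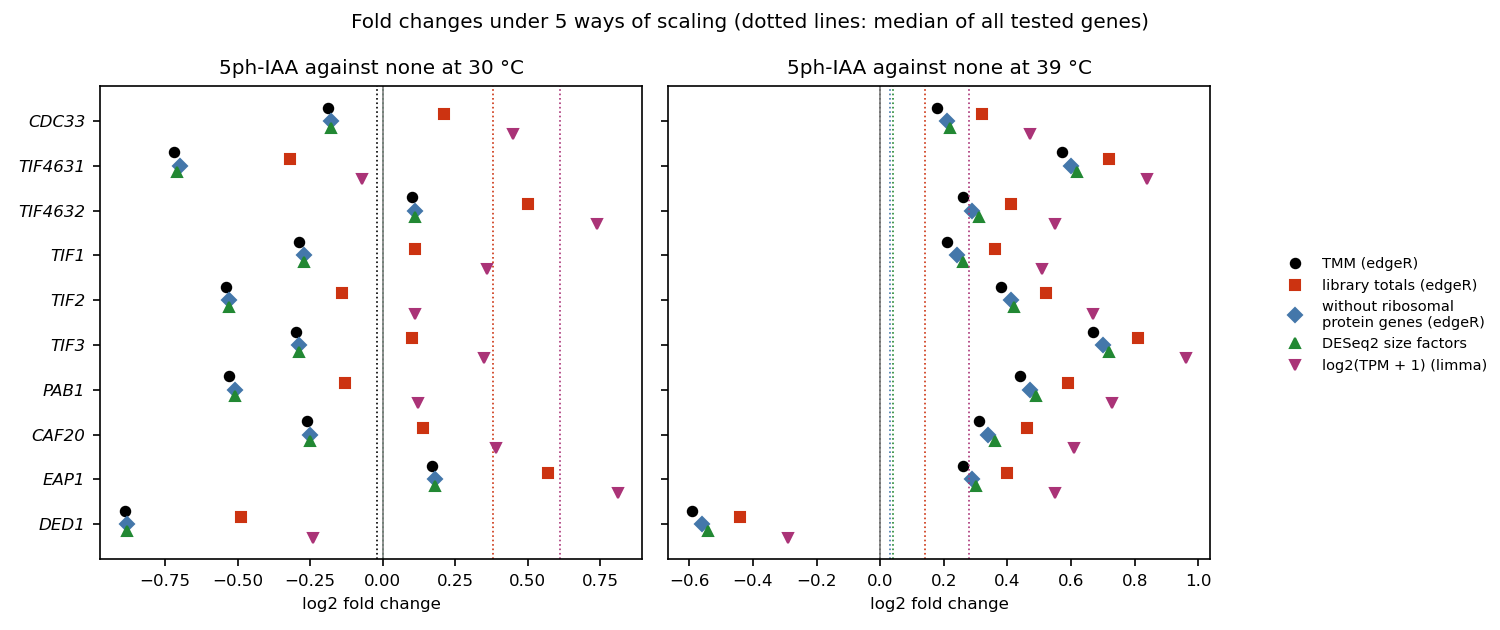
Log2 fold change (x axis) of the 10 genes (y axis) with 5ph-IAA against none at 30 °C and at 39 °C under 5 ways of scaling, with dotted lines for the median of all tested genes under each. At 30 °C CDC33, TIF1, TIF2, TIF3, PAB1 and CAF20 cross 0 between scalings, and the medians span −0.02 to 0.61. At both temperatures DED1 lies left of 0, and EAP1 and TIF4632 lie right of 0, under all 5. TIF4631 lies left of 0 at 30 °C and right of 0 at 39 °C under all 5.

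The genes around the complex were read from lists of translation and RNA-binding factors, chosen with earlier results of these data known. Their counts are with TMM scaling unless another is named, and are read against the shares of all tested genes called. With TMM these were 42.5% higher and 39.7% lower for heat shock in untreated cells, 38.0% and 38.3% in treated cells, 23.6% and 28.1% for 5ph-IAA at 30 °C, 22.5% and 22.0% at 39 °C, and 26.0% and 22.9% for the interaction. By library totals the shares in the same order were 39.3% and 42.6%, 24.6% and 55.0%, 69.1% and 8.77%, 40.4% and 12.4%, and 15.8% and 44.5%. On the log2(TPM + 1) scale they were 47.0% and 34.2%, 27.5% and 49.4%, 84.8% and 4.81%, 56.2% and 6.47%, and 11.9% and 51.4%. Most tested genes were thus called higher with 5ph-IAA at 30 °C by both of these scalings, and a list at such a share does not stand apart from them.

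The list of 18 initiation factors outside eIF4F includes those that carry the initiator tRNA, pick the start codon or form eIF3. All 18 fell on heat shock without 5ph-IAA (median −1.55) and all 18 with it (median −0.90). The count of 0 that rose was also 0 at an unadjusted p under 0.05 and with DESeq2 in both comparisons. With 5ph-IAA 16 were called lower at 30 °C with TMM scaling (median −0.32), against 28.1% of all tested genes, and 14 higher at 39 °C (median 0.36), against 22.5%. The interaction was called above 0 for 17 (median 0.64), against 26.0%. By library totals the interaction was above 0 for 14 (median 0.39), and on the log2(TPM + 1) scale it was above 0 for 10 and under 0 for 2 (median 0.28). NIP1, an eIF3 subunit, had the largest fall, from 162 to 21.8 TPM (−3.02 ± 0.06, adjusted p = 1.35e-14), and −2.35 in treated cells. It was also the lowest of the list with 5ph-IAA at 30 °C by TMM (−0.55 ± 0.06, adjusted p = 2.26e-06), but 0.10 on the log2(TPM + 1) scale (adjusted p = 0.190; 162 and 173 TPM). PRT1, another eIF3 subunit, fell by 1.58 in untreated and fell by 0.59 in treated cells, beside −1.58 and −0.62 for PAB1. PRT1 was the nearest profile to PAB1 over the same 8 libraries, so this likeness is not a separate result. At 30 °C the list's direction with 5ph-IAA turned with the scaling, as for the 10 genes: its median was 0.08 by library totals and 0.33 on the log2(TPM + 1) scale, where 17 were called higher, against 84.8% of all tested genes. With TMM scaling the 10 genes and this list had medians of the same sign in all 4 comparisons and the interaction.

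DHH1 stands in both the helicase and the repressor list. Of 22 other DEAD-box helicases, most of them ribosome assembly factors, 19 fell and 3 rose on heat shock without 5ph-IAA (median −3.20), and the same numbers were called with it (median −1.53). At 30 °C 15 were called lower and 1 higher with 5ph-IAA (median −0.33), at 39 °C 16 higher and 2 lower (0.69), and the interaction was above 0 for 17 and under 0 for 2 (0.98). The 30 °C direction of the helicases turned with the scaling, with 9 higher and 5 lower by library totals and 17 and 1 on the log2(TPM + 1) scale (median 0.32), the latter against 84.8% and 4.81% of all tested genes. At 39 °C both of these gave 18 higher and 2 lower, and the interaction was above 0 for 15 and under 0 for 4 by library totals and for 12 and 4 on the log2(TPM + 1) scale (median 0.39). DBP7, a helicase of large-subunit assembly, fell by 4.81 ± 0.10 (adjusted p = 1.26e-14), and DBP2 was the lowest with 5ph-IAA at 30 °C (−1.41 ± 0.04, adjusted p = 7.4e-12; −0.76 on the log2(TPM + 1) scale). DBP1, the paralogue of DED1, rose from 2.277 and 2.794 TPM to 10.36 and 9.684 on heat shock (1.85 ± 0.17, adjusted p = 2.8e-07; 54 and 69 against 504 and 455 estimated counts), and was higher with 5ph-IAA at 30 °C by 0.65 ± 0.19 (adjusted p = 0.0126; 1.04 on the log2(TPM + 1) scale). At 39 °C with 5ph-IAA it stood at 10.35 and 12.88 TPM, so DED1 remained the more abundant of the pair in all 8 libraries.

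Among 12 poly(A) tail factors and Pab1 partners, 6 rose and 5 fell on heat shock without 5ph-IAA (median 0.10), near the 42.5% higher and 39.7% lower over all tested genes. DESeq2 called 3 higher and 5 lower, and the log2(TPM + 1) scale 6 and 2. The largest changes were those of the poly(A) polymerase PAP1 (0.70 ± 0.07, adjusted p = 3.78e-07) and the termination factor SUP35 (−2.07 ± 0.05, adjusted p = 3.09e-14). With 5ph-IAA the heat shock count was 4 rising and 4 falling (median −0.03). At 30 °C 2 were called higher and 2 lower with 5ph-IAA (median 0.00), among them PAN3 of the poly(A) nuclease (0.36 ± 0.05, adjusted p = 5.39e-05; 0.99 on the log2(TPM + 1) scale) and the nuclear poly(A)-binding protein NAB2 (−0.66 ± 0.06, adjusted p = 3.7e-07), a call lost on the log2(TPM + 1) scale (−0.02, adjusted p = 0.793). At 39 °C the counts were 3 and 2 (median −0.03), and the interaction was above 0 for 2 and under 0 for 4 (median −0.08). On the log2(TPM + 1) scale 11 of the 12 were called higher with 5ph-IAA at 30 °C (median 0.63; also 11 by library totals), near the 84.8% and the median of 0.61 over all tested genes. On heat shock in treated cells 0 rose and 7 fell on that scale (0 and 8 by library totals), against 27.5% and 49.4% of all. With 5ph-IAA at 39 °C 8 were called higher and 1 lower there, against 56.2% and 6.47%, and the interaction was above 0 for 1 and under 0 for 9 (median −0.42, beside −0.35 for all tested genes; 2 and 8 by library totals).

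Of the 12 tested repressors and RNA-binding proteins linked to eIF4F, 3 rose and 8 fell on heat shock without 5ph-IAA (median −0.42), and 3 rose and 6 fell with it (median −0.10). By library totals 2 rose and 10 fell in treated cells (median −0.43), beside 2 and 8 in untreated cells (median −0.50). On the log2(TPM + 1) scale 2 rose and 9 fell in treated cells (median −0.32), beside 3 and 6 in untreated cells (median −0.29). The median fall was thus smaller with 5ph-IAA by TMM and slightly by library totals, but not on the log2(TPM + 1) scale. With 5ph-IAA 1 was called higher and 6 lower at 30 °C (median −0.20), 4 higher and 3 lower at 39 °C (median 0.13), and the interaction was above 0 for 6 and under 0 for 2 (median 0.34). By library totals the list had 7 higher and 2 lower at 30 °C, 7 and 3 at 39 °C, and an interaction above 0 for 6 and under 0 for 4 (median 0.09). On the log2(TPM + 1) scale the list had 10 higher and 1 lower at 30 °C (median 0.44), near the 84.8% and 4.81% of all tested genes, 9 and 2 at 39 °C (median 0.40), and an interaction above 0 for 3 and under 0 for 4 (median −0.01). DHH1, an activator of decapping, rose by 1.33 ± 0.06 (adjusted p = 5e-11), and SRO9, an RNA-binding protein, fell by 2.91 ± 0.19 (adjusted p = 5.89e-09) from 14.7 to 2.14 TPM. With 5ph-IAA at 30 °C the largest values were those of NGR1, an RNA-binding protein (0.46 ± 0.07, adjusted p = 6.79e-05; 1.08 on the log2(TPM + 1) scale), and the ribosome-bound protein STM1 (−1.45 ± 0.04, adjusted p = 3.54e-12; −0.80 on that scale). Among repressors that bind eIF4G, the heat shock change in untreated cells was −0.20 for SCD6 (adjusted p = 0.0107) and 0.11 for SBP1 (adjusted p = 0.0266). For NPL3, which also binds eIF4G and was named after its values were seen, it was −0.69 (adjusted p = 5.61e-09). On the log2(TPM + 1) scale the SCD6 call was lost (−0.07, adjusted p = 0.385), SBP1 was 0.24 and NPL3 −0.56. The SBP1 call was lost by library totals (0.04, adjusted p = 0.386), without ribosomal protein genes (0.05, adjusted p = 0.245) and with DESeq2 (0.05, adjusted p = 0.338).

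The mRNAs of the nuclear cap-binding complex, which holds the cap before export, were also lower on heat shock with TMM scaling. STO1, its large subunit, fell by 1.17 ± 0.05 (adjusted p = 2.61e-11), and the cap-binding subunit CBC2 by 0.25, a call lost on the log2(TPM + 1) scale (−0.12, adjusted p = 0.0767). With 5ph-IAA both subunits fell as well, STO1 by 0.93 and CBC2 by 0.33, and neither was called with 5ph-IAA at 30 °C (0 of 2 by edgeR and by DESeq2, 1 at an unadjusted p under 0.05). At 39 °C STO1 was called higher with 5ph-IAA (0.14, and 0.42 on the log2(TPM + 1) scale), and its interaction was 0.24 (adjusted p = 0.00986), but −0.01 by library totals (adjusted p = 0.890) and −0.12 on the log2(TPM + 1) scale (adjusted p = 0.240). The interaction of CBC2 was −0.08 (adjusted p = 0.485), but called under 0 on that scale (−0.43, adjusted p = 0.00202), while the median interaction of the pair was 0.08 with TMM and −0.28 on the log2(TPM + 1) scale. On that scale both were called higher with 5ph-IAA at 30 °C (median 0.64), as were 84.8% of all tested genes.

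The genes with the profile nearest to each member over the 8 libraries were found by the root mean square difference of log2 CPM (counts as shares of a library, TMM scaling, prior count 2) after centring. The nearest to CDC33 were MRH1 (0.050) and ERG25 (0.054), and to TIF4631 YOR342C (0.097) and URK1 (0.110). TIF4632 lay nearest BUD3 (0.038) and CEX1 (0.043). TIF1 lay nearest PUB1 (0.048) and SSH1 (0.050), and TIF2 nearest SSB2 (0.042) and SAH1 (0.071), so the listed profiles of the duplicate genes had different neighbours. TIF3 was nearest TMA46 (0.053) and FPR4 (0.063), PAB1 nearest PRT1 (0.068) and GLN4 (0.069), and CAF20 nearest CYS4 (0.048) and FUS3 (0.051). EAP1 was nearest IST2 (0.031) and STP1 (0.036), and DED1 nearest HMF1 (0.097) and CYC1 (0.1), the widest gap to a first neighbour beside that of TIF4631.

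The 300 bases before each start codon were searched on both strands for short motifs of growth and stress factors. These windows come from the S288C reference (R64, RefSeq), they include 5′ leaders, and 6007 of them were searched for the background. The core of the ribosomal RNA processing element, AAAATTTT, which is its own reverse complement, stood before 4 of the 10 genes (CDC33, TIF4631, TIF1 and TIF3) and in 9.42% of all windows. The matches are printed in capitals with their flanks, 5′ to 3′ on the coding strand.
CDC33, XV:61221-61244: ggtcgggtAAAATTTTattaccct
CDC33, XV:61195-61218: ccgaaaagAAAATTTTtttcgtcg
TIF4631, VII:823838-823861: tttcaagaAAAATTTTcgatgccg
TIF1, XI:554796-554819: gtgactgaAAAATTTTtgcattct
TIF3, XVI:870122-870145: acggaatgAAAATTTTtttgcgga

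All 4 genes with this match fell on heat shock without 5ph-IAA, as did 4 genes without it (TIF2, PAB1, CAF20 and DED1). EAP1, the 1 gene that rose, held the pair of heat shock element units GAANNTTC (11.5% of all windows) and the core Rap1 sequence ACCCATAC (0.899% of all windows), the only match to either in the set, and these do not overlap each other.
EAP1, XI:53598-53621: aatcgttgGAAGGTTCaaaaagga
EAP1, XI:53687-53703: ggactttaACCCATACa

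The first lies 98 to 91 bases and the second 9 to 2 bases before the start codon. The motif PAC (GCGATGAG, 4.05% of all windows), the stress response element (AGGGG, 22.2%) and the Gcn4 element (TGACTC, 7.76%) had no match in the 10 windows. A match is a string of letters and not a measured site, and binding was not measured in these libraries.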

How the data were processed

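Poly-A RNA libraries were made with a kit that does not mark strand, per the labels' protocols. The authors deposited estimated counts and TPM for each of 6034 coding targets in each library, and the submitters' processing notes name kallisto as the tool; its version, its transcript set and the build were not given in the sources used here. Libraries were grouped by title, temperature and replicate label, and the spread that p-values measure is that between these samples, which may be technical. The deposited estimated counts were rounded and tested with edgeR 4.0.16 in R 4.3.3 (TMM, filterByExpr, quasi-likelihood test, 5734 genes tested, 1 fit of 8 libraries with 4 residual degrees of freedom). Tests were 2-sided with Benjamini-Hochberg adjustment over all tested genes at 0.05. The SE does not cover the uncertainty of dividing reads between TIF1 and TIF2. The fit was also run on simulated data with 200 changed genes. These were far fewer than the genes called here, so that run did not test the scaling under changes as wide as these. Ratios of deposited TPM within a library were compared by exact permutation tests (SciPy 1.17.1).

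Alternatives were library totals alone, scaling without ribosomal protein genes, DESeq2 1.42.0, no filter, limma 3.58.1 on log2(TPM + 1) and log2(TPM + 0.1), the 4 libraries of a comparison alone, each library left out, a replicate block, and TIF1 and TIF2 summed. The text names all 10 genes, the 2 nearest profiles of each, the largest rise and fall per list in heat shock without 5ph-IAA and in 5ph-IAA at 30 °C, and DBP1, STO1, CBC2, SCD6, SBP1, DHH1, PRT1 and NIP1. Members and lists were chosen with earlier results of these data known. PUF5, in the list of repressors, was not found by symbol. Positions and sequences are those of R64 (S288C, RefSeq) and not of W303a; each member's target length matched its R64 coding length.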

Additional observations from a re-analysis of the deposited data

Results flagged for a closer look

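The heat shock change differed between cells with and without 5ph-IAA for 8 of the 10 genes, as tested by the interaction in edgeR with TMM scaling (Benjamini-Hochberg adjusted p under 0.05). Over all tested genes 26.0% were called above 0 and 22.9% under 0. The log2 difference was 1.29 for TIF4631, 0.97 for TIF3, 0.97 for PAB1, 0.92 for TIF2, 0.57 for CAF20, 0.50 for TIF1, 0.37 for CDC33 and 0.30 for DED1, in each case a smaller fall with 5ph-IAA. By library totals 6 of them were called, against 15.8% of all tested genes above 0, and CDC33 (0.12, adjusted p = 0.181) and DED1 (0.05, adjusted p = 0.569) were not. On the log2(TPM + 1) scale the interaction was called above 0 for 5 of them, against 11.9%, and CDC33 (0.01), TIF1 (0.14) and DED1 (−0.05) were not called. The ribosomal protein share of TPM and the sequencing depth also differ between these groups, and their part was not tested.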

How the results depend on the processing

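With 5ph-IAA at 30 °C the counts depended on scaling: library totals gave 5 higher and 4 lower calls, against 7 and 1 on the log2(TPM + 1) and log2(TPM + 0.1) scales, and with each library left out in turn 0 to 1 were called higher. Heat shock with 5ph-IAA had 0 genes called higher with library totals alone and on both TPM scales. The interaction had 5 called above 0 and 1 under 0 on both TPM scales. Signs turned as follows, with library totals first where 3 values are given and otherwise on the TPM scales with pseudocounts 1 and 0.1. At 30 °C with 5ph-IAA they were CDC33 0.21, 0.45 and 0.46, TIF1 0.11, 0.36 and 0.36, TIF3 0.10, 0.35 and 0.35, CAF20 0.14, 0.39 and 0.39, TIF2 0.11 and 0.11, and PAB1 0.12 and 0.12. For heat shock they were TIF4632 0.03 and 0.03 without 5ph-IAA and −0.26, −0.16 and −0.16 with it. For the interaction they were TIF4632 −0.09, −0.19 and −0.19, EAP1 −0.16, −0.26 and −0.27, and DED1 −0.05 and −0.05. DED1 in heat shock with 5ph-IAA ranged from −0.08 to 0.02 with libraries left out. The ratio of eIF4E-binding proteins to CDC33 with 5ph-IAA at 30 °C was −0.02 from TPM, 0.11 from counts and −0.08 to 0.03 with libraries left out, and CAF20 to EAP1 at 39 °C ranged from −0.01 to 0.12. The cause was not tested beyond the shift of the median of all genes given above. Of 830 alternative fold changes of the 10 genes, 772 kept sign and call. Many of the 830 kept TMM scaling or left out a library outside the comparison, so they had little room to change. Of the 31 that turned sign, 16 were with 5ph-IAA at 30 °C. With a replicate block no call of the 10 genes changed (8 lower in heat shock without 5ph-IAA); the numbers were not shown to pair samples (r of replicate differences between groups −0.14 to 0.11). With 2 libraries per group, exact tests of a single value cannot go under p = 0.333, and TIF1 and TIF2 are limited by shared sequence and not by depth.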
